A study of Mus musculus with 51 samples.

Results

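Krt5, Krt14 and Krt15 are the keratins of the basal layer of stratified squamous epithelium. The 3 genes were taken from the 52636 genes of the deposited count table by their gene names, and they were followed through all 14 groups (51 libraries) of a mouse RNA-seq series. Total RNA of epithelial cells, sorted where the labels give a gate, was read on a NovaSeq instrument from Ovation Solo libraries. The question that the group labels pose is how squamous cells of the oesophagus change when SmoM2, an active form of the Hedgehog transducer Smoothened, is expressed in them.

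Wild-type oesophagus (WT, n = 6) came from CD1 mice and was sorted on low EpCAM. SmoM2 oesophagus (genotype Krt5-SmoM2, CD1, n = 6) was sorted on high EpCAM. Cells of Krt5-SmoM2-Krt8YFP mice of mixed background were sorted on high EpCAM and split by a Krt8 reporter into K8YFP+ (n = 3) and K8YFP- (n = 3). Oesophagus of the genotype Krt5-SmoM2-Sox9fl/fl (Sox9cKO, n = 4) has no strain or gate in its labels. Krt5-SmoM2 oesophagus at 3 and 7 weeks was split into an EpCAM-high gate (3w EpHi and 7w EpHi, n = 4 each) and an EpCAM-low gate (3w EpLo and 7w EpLo, n = 4 each), and the labels do not say from when the weeks run. Nor do the labels give the strain of these 3w and 7w groups. Krt8YFP mice gave the E13.5 embryonic oesophagus (n = 2, sorted on EpCAM and YFP), the columnar part of the junction (n = 4, high EpCAM and YFP), the squamous part of the junction (n = 3, no gate or strain in its labels), stomach (n = 2, YFP) and gut (n = 2, YFP). All of these except the squamous junction were of mixed background. Ages of the mice are not given, and nothing in the labels ties libraries to animals, so that p-values measure the spread between these libraries.

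Keratins build intermediate filaments as obligate pairs of a type II and a type I chain. In basal squamous cells the type II chain is Krt5 and its type I partners are Krt14 and Krt15. Cells that leave the basal layer of the oesophagus replace them with Krt4 and Krt13, whereas simple epithelia such as stomach and gut rely on Krt8, Krt18 and Krt19. Krt15 is also used as a marker of long-lived basal cells in the oesophagus and of the hair follicle bulge.

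In GENCODE M21 (GRCm38), Krt5 (ENSMUSG00000061527) lies on the minus strand at chr15:101707070-101712898. Krt14 (ENSMUSG00000045545) lies on the minus strand at chr11:100203162-100207548, and Krt15 (ENSMUSG00000054146) lies near it on the same strand at chr11:100131758-100135928. Merged exons span 2197 bases in Krt5, 1758 in Krt14 and 1767 in Krt15. The 2 type I genes are close relatives, which bears on how reads can be told apart. The stretches below come from their coding exons (Krt14-201, coding bases 646 to 753 of 1452, and Krt15-201, coding bases 580 to 687 of 1368) and are shown because they hold, in capitals, the longest run that both coding sequences share, of 28 bases.
Krt14: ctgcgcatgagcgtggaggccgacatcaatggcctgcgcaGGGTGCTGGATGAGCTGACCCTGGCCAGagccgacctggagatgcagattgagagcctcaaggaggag
Krt15: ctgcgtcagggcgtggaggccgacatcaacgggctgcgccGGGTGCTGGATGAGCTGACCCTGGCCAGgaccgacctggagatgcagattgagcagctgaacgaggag
No 50-base window of the Krt14 exons was found in Krt15. Windows of Krt14 that occur in another gene made up 13.9% of all its windows and were shared with Krt16 and Krt17. For Krt5 the share was 8.52% (Krt6a, Krt6b and the unnamed genes Gm5414 and Gm5478), and for Krt15 it was 0.640% (Krt17 and Krt25). How the authors' counting treated reads of such windows is not given in the sources used here, so that Krt14 and Krt5 counts are uncertain by an unknown amount where Krt16, Krt17, Krt6a or Krt6b are high.

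The promoter of Krt5 is shown because the genotype names tie SmoM2 to this gene and because it holds a TATA-like hexamer. The sequence precedes the RefSeq start on the minus strand (GRCm38.p6, chr15:101712906-101713155), with ATAAAA in capitals.
Krt5: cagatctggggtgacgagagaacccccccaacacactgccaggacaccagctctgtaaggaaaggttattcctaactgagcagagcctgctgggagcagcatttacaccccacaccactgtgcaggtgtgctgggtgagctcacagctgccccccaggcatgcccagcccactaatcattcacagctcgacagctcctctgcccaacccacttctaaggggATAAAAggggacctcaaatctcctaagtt
The hexamer occurred 1 time on the coding strand, starting 29 bases before the gene's start, and 0 times on the other strand. Searched on both strands, ATAAAA was present in 17.6% of the 27025 promoter windows of this length. Whether the transgene behind the name Krt5-SmoM2 carries transcribed Krt5 sequence is not given in the sources used here.

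Library totals ranged from 1.61 M counts in K8YFP+ to 12.3 M in SmoM2. In the adult squamous groups other than K8YFP+ they were 5.06 M or more. Trp63, the master regulator of squamous basal cells, averaged 300.3 CPM or more in the 10 adult squamous groups and in the embryo, 3.31 in the columnar junction, 0.494 in gut and 0 in both stomach libraries. Krt8 averaged between 0.461 and 4.21 CPM in the 9 adult squamous groups other than K8YFP+. Smo, whose counts may include reads of the SmoM2 transgene, averaged 75.0 CPM in WT, 208 in SmoM2, 161 in 3w EpHi and 232 in 7w EpHi. In the EpLo libraries, labelled with the same Krt5-SmoM2 genotype, it averaged only 76.1 at 3w (log2 fold change from WT -0.03, adjusted p = 0.773) and 96.1 at 7w (0.24, adjusted p = 0.0324), so that Smo counts do not set 3w EpLo apart from WT. WT libraries 3 and 5, and likewise 4 and 6, differed far less than other WT pairs did (chi-square per degree of freedom 1.92 and 2.47, against 11 to 35.6). They still differed by more than sampling noise and were kept as separate libraries, with the sums of each pair used as an alternative. The leading number of the raw file names differs between most groups, being 11 in all 3w and 12 in all 7w libraries. Only K8YFP+, K8YFP-, stomach, gut and 2 WT libraries share the number 6, and SmoM2 library 1 carries the number 1 whereas the other SmoM2 libraries and Sox9cKO carry 2.

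Levels are given in CPM (the counts of a gene scaled by the library total), and genes are compared with each other only per length of their exons. Krt5 was highest in the squamous junction, at 5898 ± 389 CPM (SD, n = 3), and lowest among adult squamous groups in K8YFP+, at 1223 ± 333 (n = 3). Between them stood Sox9cKO at 3751 ± 877 (n = 4), K8YFP- at 3599 ± 773 (n = 3), WT at 3453 ± 943 (n = 6), 7w EpHi at 2964 ± 381, 7w EpLo at 2888 ± 177, SmoM2 at 2429 ± 353 (n = 6), 3w EpLo at 2335 ± 110 and 3w EpHi at 2301 ± 73.6 (n = 4 each). The embryo had 259 ± 80.2 (n = 2) and the columnar groups 21.95 CPM or fewer on average.

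Krt14 kept nearly the same top and bottom of the order but moved more in the middle. The squamous junction again came first with 2722 ± 347 CPM, followed by WT with 2290 ± 394, 3w EpLo with 2182 ± 205 and Sox9cKO with 2095 ± 463. Next came 3w EpHi with 1553 ± 94.8, K8YFP- with 1491 ± 677, 7w EpLo with 1438 ± 101, SmoM2 with 1286 ± 288, 7w EpHi with 851 ± 107 and K8YFP+ with 469.5 ± 88.9. The embryo had 35.5 ± 4.10 CPM.

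Krt15 had a different order. It was highest in the EpCAM-low libraries labelled Krt5-SmoM2, with 1514 ± 49.3 CPM in 7w EpLo and 1313 ± 47.3 in 3w EpLo. WT had 1078 ± 121, 3w EpHi 1032 ± 91.3, Sox9cKO 956 ± 353, K8YFP- 938 ± 332, 7w EpHi 899 ± 142 and SmoM2 685 ± 32.7. The embryo, at 673 ± 203, stood beside SmoM2, and the squamous junction, which led for the other two genes, had only 475 ± 22.6, just above K8YFP+ at 390 ± 159. For each of the 39 pairs of neighbours in these orders, log2(CPM + 1) was set side by side in a two-sided exact permutation test, with adjustment over all pairs. None of these exact tests passed (lowest adjusted p = 0.248), and groups of this size cannot separate most neighbours: 3 libraries against 4 cannot go below p = 0.0571. Libraries did not overlap between neighbours at 4 steps of Krt5 (squamous junction over Sox9cKO, 3w EpHi over K8YFP+, K8YFP+ over embryo, embryo over columnar junction), at 2 of Krt14 (7w EpHi over K8YFP+ and K8YFP+ over embryo), and at 5 of Krt15. The share of all genes without overlap at the same steps was not computed, so that these counts show nothing particular to the 3 genes. The same holds for each later statement on whether the libraries of compared groups overlap.

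**Figure D1:**
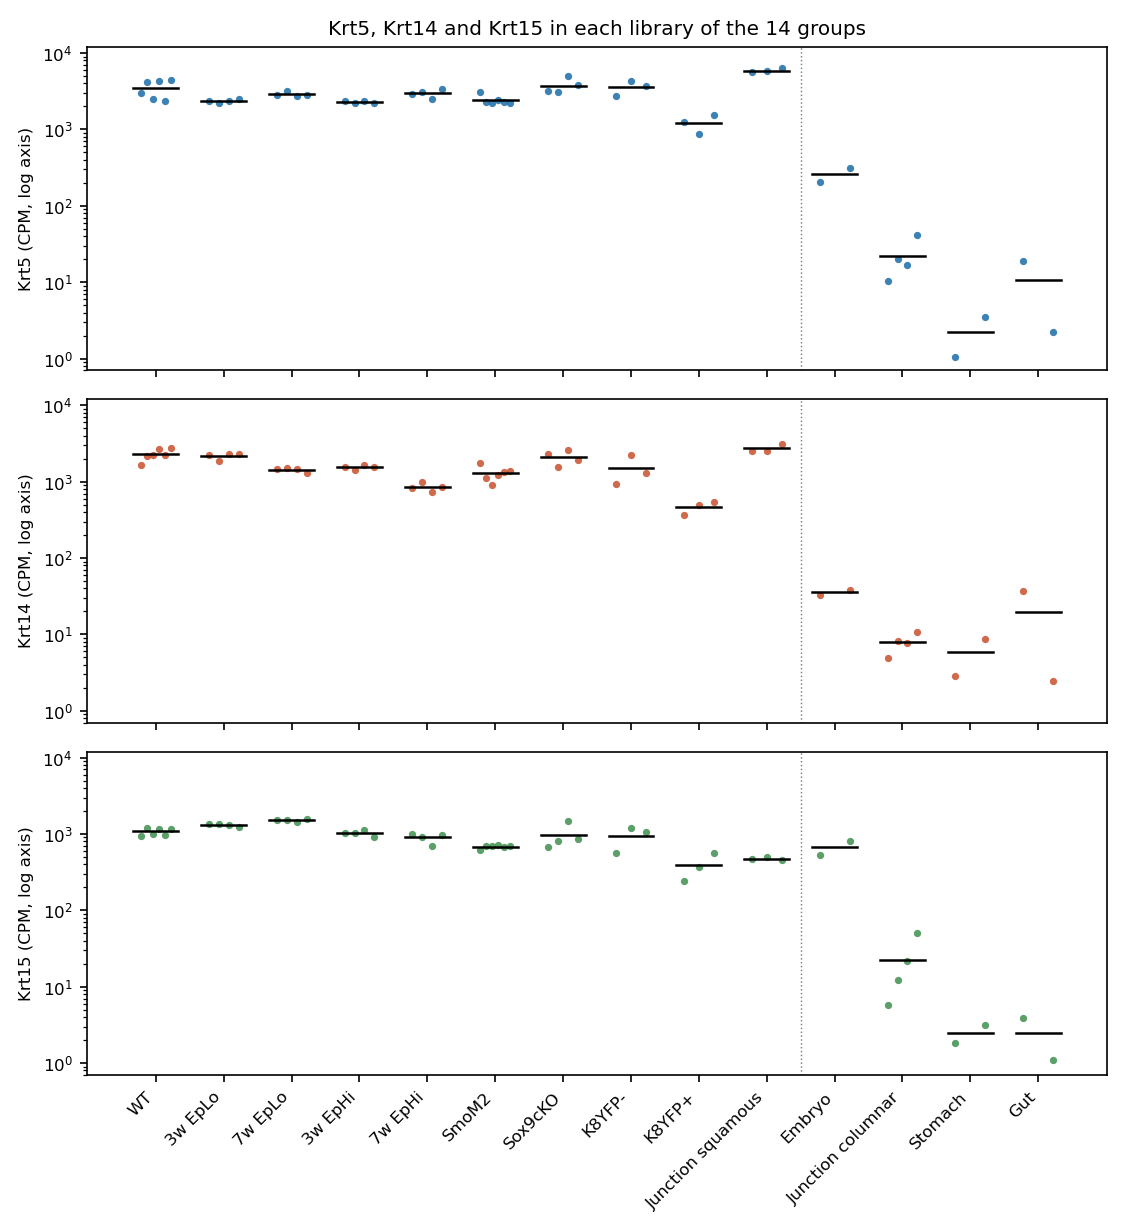
CPM (log axis) of Krt5, Krt14 and Krt15 in each library (points) with the group mean (bar), adult squamous groups left of the dotted line. Krt5 and Krt14 are lower in the embryo and the columnar tissues than in the squamous groups, while Krt15 in the embryo (673 CPM) lies within the range of the squamous group means. Krt5 of the embryo lies above all columnar libraries, whereas Krt14 of the embryo (32.6 and 38.4 CPM) overlaps gut library 1 (37.4).

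Together the 3 genes made up 30.2% ± 7.35 (SD, n = 6) of the counts of all 54 keratin genes in WT and 25.0% ± 2.42 in SmoM2. They took 47.3% ± 1.79 in 3w EpLo, 43.8% ± 2.73 in 3w EpHi and 44.9% ± 0.978 in the squamous junction, but 6.04% ± 1.88 in K8YFP+, where the suprabasal keratin Krt13 averaged 13493 CPM. In the embryo the share was 35.4% ± 6.79, although the 3 genes held only 0.0968% of all its counts, against 0.682% in WT. The squamous libraries other than K8YFP+ lay between 20.1% and 49.3%, and the columnar tissues at 2.37% or below.

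**Figure D2:**
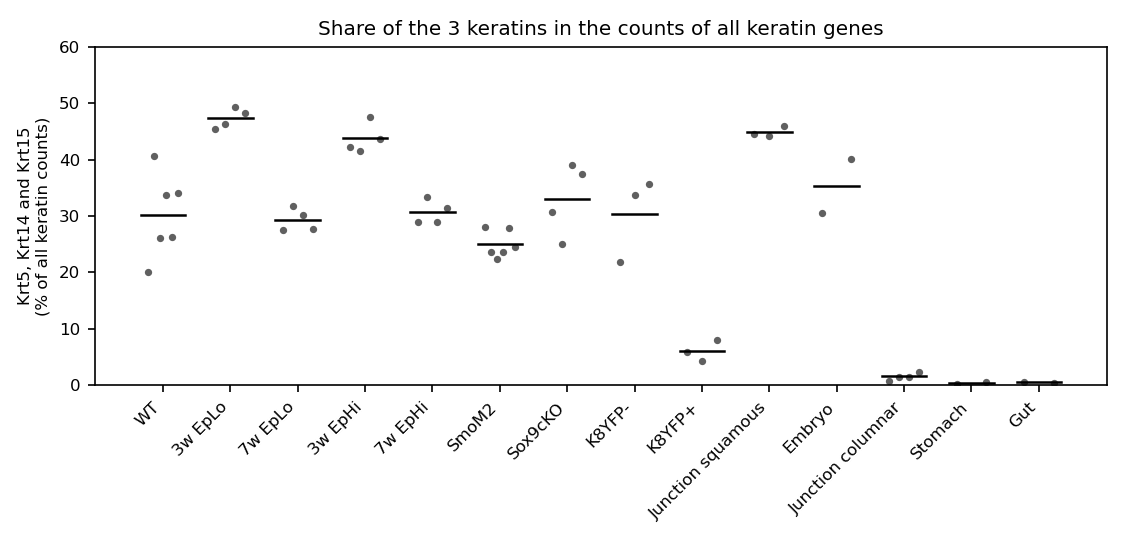
Share of Krt5, Krt14 and Krt15 in the counts of all keratin genes (%) in each library (points) with the group mean (bar). K8YFP+ lies apart from the other adult squamous groups, between 4.29% and 8.02%, while the embryo lies at 30.6% and 40.2%.

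All 3 basal keratins were lower in SmoM2 than in WT. Krt5 ranged from 2209 to 3132 CPM in SmoM2 (median 2275) and from 2357 to 4384 in WT (median 3591). The groups overlapped, since SmoM2 library 1 exceeded WT libraries 1, 3 and 5 (2979, 2508 and 2357 CPM). Krt14 ranged from 915 to 1771 in SmoM2 (median 1276) and from 1667 to 2777 in WT (median 2234), with an overlap of SmoM2 library 1 and WT library 1. Krt15 ranged from 622 to 708 (median 698) and from 948 to 1212 (median 1085), without overlap. By edgeR's quasi-likelihood test with Benjamini-Hochberg adjustment over all genes, the log2 fold change was -0.62 ± 0.17 for Krt5 (SE, adjusted p = 0.00586), -0.95 ± 0.16 for Krt14 (0.000166) and -0.78 ± 0.08 for Krt15 (2.32e-06), which is 1.54-fold, 1.93-fold and 1.72-fold lower. Thus 3 of 3 fell, where 23.3% of the 16224 genes tested did. In these bulk samples, fewer cells of a type and less RNA per cell cannot be told apart.

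The rest of the basal program did not move with them as a block. Of 13 genes that anchor basal cells to the basement membrane, 5 rose and 3 fell in SmoM2 (median log2 fold change 0.14, against 0.01 over all genes tested), those with the lowest adjusted p being the laminin chain Lama5 (1.64, adjusted p = 3.64e-07) and the integrin chains Itga6 (-0.66, 0.000448) and Itga3 (0.58, 0.000728). Of 12 basal regulators and receptors, 6 rose and 5 fell (median log2 fold change 0.11), and Trp63 among them rose by 0.49 (adjusted p = 0.000715). Other keratins changed more than the basal ones: Krt10 rose by 4.82 and Krt17 by 3.17, while Krt4 fell by 2.23 and Krt13 fell by 1.17, each with an adjusted p of 1.92e-05 or less. SmoM2 and WT differ in genotype, in EpCAM gate and in the leading number of the raw names, and these cannot be told apart in this comparison.

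**Figure D3:**
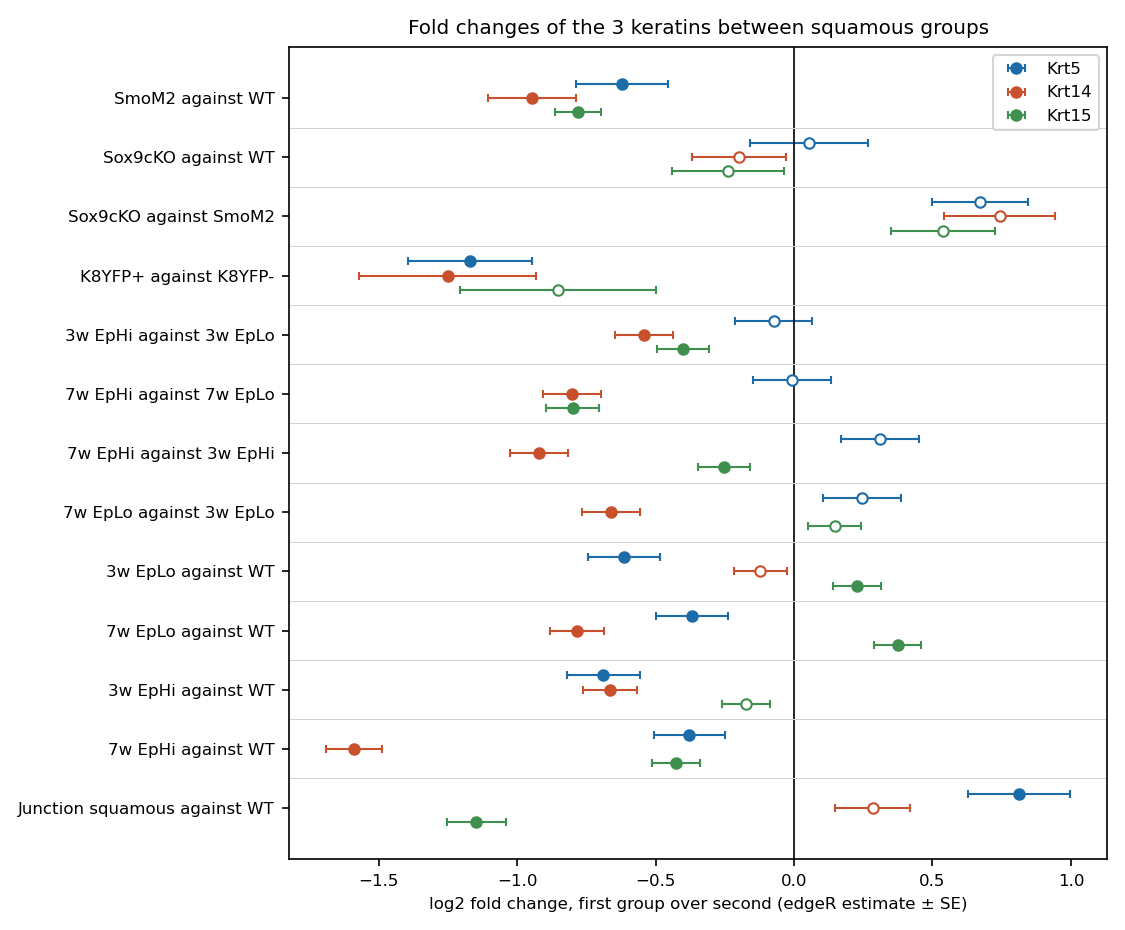
Log2 fold change (edgeR estimate, bars are SE) of Krt5, Krt14 and Krt15 in 13 comparisons of adult squamous groups, filled where the adjusted p is under 0.05. The 3 genes lie together in SmoM2 against WT (-0.95 to -0.62) and apart in the gate, time and squamous junction comparisons.

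The time series compares both EpCAM gates within 1 labelled genotype, although Smo was higher in EpHi than in EpLo at 3w (log2 fold change 1.03, adjusted p = 4.71e-08) and at 7w (1.23, adjusted p = 4.38e-10). At 3w Krt5 covered much the same range in EpHi (2365, 2246, 2365 and 2229.6 CPM in libraries 1 to 4) and EpLo (2324, 2202, 2345 and 2470.0). Krt14 was 1541, 1435, 1665 and 1570.1 in EpHi and 2234, 1881, 2333 and 2281 in EpLo. Krt15 was 1045, 1036, 1134 and 912 in EpHi and 1341, 1354, 1309.7 and 1248 in EpLo. The Krt5 values of the gates interleave, whereas each EpHi library lies below each EpLo library for Krt14 and for Krt15. How many of all genes separate the gates in this way was not computed, at 3w or at 7w. The fitted difference of EpHi from EpLo was -0.07 ± 0.14 for Krt5 (adjusted p = 0.789), -0.54 ± 0.10 for Krt14 (adjusted p = 0.000610) and -0.40 ± 0.09 for Krt15 (adjusted p = 0.00425). The 2 type I genes were therefore called lower in EpHi, as were 7.84% of 17263 genes. Neither was called in a fit of all 51 libraries (adjusted p = 0.353 and 0.542). Both calls held with the replicate number as a block.

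At 7w the same pair of type I genes was lower in EpHi. Krt5 was 2923, 3079.8, 2469 and 3383 CPM in EpHi and 2864, 3144, 2755 and 2788 in EpLo, again interleaved. Krt14 was 815, 996, 741 and 852 in EpHi against 1466, 1524, 1470.4 and 1291 in EpLo. Krt15 was 1002, 927, 691 and 978 against 1502, 1544, 1451 and 1561. No library of one gate reached the other for these 2 genes. EpHi differed from EpLo by -0.01 ± 0.14 for Krt5 (adjusted p = 0.971), -0.80 ± 0.10 for Krt14 (1.60e-06) and -0.80 ± 0.09 for Krt15 (4.02e-07), so that Krt14 was 1.75-fold and Krt15 1.74-fold lower, where 16.8% of all genes were called lower. The fit of all 51 libraries missed both calls narrowly (adjusted p = 0.0537 and 0.0501). The difference of the gate effects between 7w and 3w did not pass for any of the 3 (Krt15 -0.40 ± 0.13, adjusted p = 0.134, Krt14 -0.26 ± 0.15, adjusted p = 0.479, Krt5 0.07 ± 0.20, adjusted p = 0.948), where 2.31% of genes did. At an unadjusted p under 0.05 it passed for 1 of the 3, Krt15, DESeq2 called 0 (Krt15 adjusted p = 0.0781), and with the compared groups fitted alone Krt15 passed (-0.40, adjusted p = 0.0450).

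Other keratins also differed between the gates, some of which share sequence windows with Krt14. Krt17, a stress keratin, was higher in EpHi by 2.14 at 3w and 5.07 at 7w, reaching 2819 CPM in 7w EpHi against 81.4 in 7w EpLo, so it moved against Krt14. Krt16, named here after its values were seen because it too shares windows with Krt14, was lower in EpHi (log2 fold change -0.60, adjusted p = 0.00806 at 3w and -0.85, adjusted p = 0.000141 at 7w). The part of such windows in the Krt14 result was not tested. Krt4 fell by 2.16 at 3w and by 3.40 at 7w, and Krt10 rose by 2.58 and 3.07. Basal anchorage genes did not fall with the type I keratins: 1 of 13 was higher and 1 lower at 3w, and 4 were higher and 0 lower at 7w. Among 12 basal regulators and receptors, 5 were lower at each time and 1 was higher at 3w and 3 at 7w, the lower ones including the growth factor receptor Egfr (-0.54 at 3w and -0.76 at 7w), and the higher ones at 7w including Trp63 (0.47, adjusted p = 6.24e-05). Epcam, on which the cells were sorted, was 0.73 and 1.08 higher.

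From 3w to 7w the 3 genes parted. Krt14 was lower at 7w in both gates, by -0.92 ± 0.10 in EpHi (adjusted p = 4.46e-07) and -0.66 ± 0.10 in EpLo (adjusted p = 3.12e-05), and no 7w library reached a 3w library of its gate. All 4 7w libraries of each gate exceeded the 3w libraries of that gate in Krt5, yet its differences of 0.31 ± 0.14 in EpHi (adjusted p = 0.0797) and 0.25 ± 0.14 in EpLo (adjusted p = 0.177) did not pass. Krt15 differed by -0.25 ± 0.09 in EpHi (adjusted p = 0.0349), where the libraries overlap, and by 0.15 ± 0.09 in EpLo (adjusted p = 0.234). In EpHi 2 of 3 were called lower, against 19.4% of all genes, and in EpLo 1 of 3 was, against 18.4%. The Krt15 call in EpHi ended without any 1 of 5 libraries (3w EpHi 1, 2 or 3, 7w EpHi 2 or 3, adjusted p up to 0.164). With 3w EpHi and 7w EpHi fitted alone, Krt5 passed (adjusted p = 0.00464), and it also passed in EpLo fitted alone (0.00582), whereas a fit of all 51 libraries ended the Krt14 call in EpLo (0.114) and the Krt15 call in EpHi (0.615). Time cannot be told apart from the leading number of the raw names, 11 or 12.

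**Figure D4:**
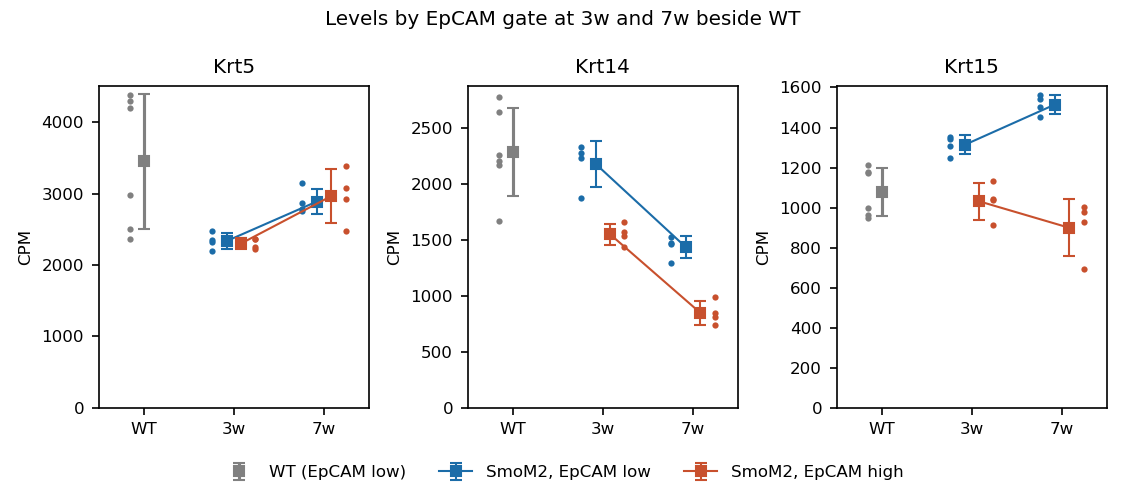
CPM of Krt5, Krt14 and Krt15 in WT and in both EpCAM gates of oesophagus labelled Krt5-SmoM2 at 3w and 7w (squares are means with SD, small points are libraries). Krt5 does not separate the gates, Krt14 is lower at 7w and in EpHi, and no Krt15 library crosses between the gates at either time.

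Set against WT, which was sorted on the same low EpCAM, the libraries labelled EpLo, in which Smo was at or near its WT level, had lower Krt5 and higher Krt15 in the main fit, though not in every alternative. At 3w EpLo differed from WT by -0.61 ± 0.13 for Krt5 (adjusted p = 0.000483), -0.12 ± 0.10 for Krt14 (0.301) and 0.23 ± 0.09 for Krt15 (0.0318). Of the 3, 1 rose and 1 fell, in a comparison that called 47.4% of genes. All 4 3w EpLo libraries exceeded every WT library in Krt15 (1248 to 1354 against 948 to 1212 CPM). That Krt15 call did not hold with the WT pairs summed (adjusted p = 0.0713), nor without any 1 of WT 1, WT 3, WT 5, 3w EpLo 1 or 3w EpLo 2 (0.0525 to 0.0811). It also ended in the fit of all 51 libraries (0.595), without the filter on low counts (0.142) and with the replicate block (0.0791). At 7w EpLo differed by -0.37 ± 0.13 for Krt5 (0.0260), -0.79 ± 0.10 for Krt14 (1.42e-06) and 0.37 ± 0.09 for Krt15 (0.00127), so that 2 fell and 1 rose where 40.4% of genes were called. The Krt5 call ended without any 1 of 6 libraries (WT 2, 4 or 6, 7w EpLo 1, 3 or 4, adjusted p up to 0.0632), and the fit of all 51 libraries kept neither this call (0.302) nor that of Krt15 (0.323). With 7w EpLo and WT fitted alone the Krt5 call ended as well (0.111).

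The EpHi cells were below WT in more of the genes. At 3w the difference was -0.69 ± 0.13 for Krt5 (adjusted p = 9.12e-05), -0.67 ± 0.10 for Krt14 (3.02e-06) and -0.17 ± 0.09 for Krt15 (0.0889), so 2 of 3 fell, as did 30.7% of genes. At 7w it was -0.38 ± 0.13 for Krt5 (0.0157), -1.59 ± 0.10 for Krt14 (3.14e-12) and -0.43 ± 0.09 for Krt15 (0.000208), so 3 of 3 fell, against 29.9%. The Krt14 level of 7w EpHi is 3.01-fold lower than that of WT, and every 7w EpHi library (741 to 996 CPM) is below every WT library. Without 7w EpHi library 3 the Krt5 call at 7w ended (adjusted p = 0.0697), as did the calls of Krt5 (0.248) and Krt15 (0.212) at 7w in a fit of all 51 libraries. These comparisons share WT, and the genotype, and for EpHi the gate, cannot be told apart from the leading number of the raw names. The strain of the 3w and 7w groups is not in their labels, so that a difference in strain from WT (CD1) cannot be told apart either.

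K8YFP+ cells had lower basal keratins than the K8YFP- cells sorted beside them. Krt5 was 1241, 882 and 1548 CPM in K8YFP+ libraries 1 to 3 and 2770.1, 4300.4 and 3727 in K8YFP-. Krt14 was 371, 495 and 543 against 930.4, 2243 and 1301. Krt15 was 241, 373 and 558 against 565, 1201 and 1047. In each gene every K8YFP+ library lay below every K8YFP- library, for Krt15 by a narrow margin between K8YFP+ library 3 and K8YFP- library 1. The share of all genes separated in this way was not computed. The log2 fold change was -1.17 ± 0.23 for Krt5 (2.25-fold lower, adjusted p = 0.0126), -1.25 ± 0.32 for Krt14 (2.38-fold lower, adjusted p = 0.0306) and -0.85 ± 0.35 for Krt15 (adjusted p = 0.122), so that 2 of 3 fell, against 6.83% of 15598 genes. With the replicate number as a block, which the paired deviations of these libraries call for, Krt15 passed as well (-0.88, adjusted p = 0.00510). The Krt14 call without the block ended when any 1 library other than K8YFP- 1 was left out (adjusted p 0.0533 to 0.0720).

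Most genes of basal anchorage were lower in K8YFP+ as well. Of 13 anchorage genes 12 fell and 0 rose (median -1.43, against -0.03 over all genes), among them Itga6 (-1.41), Itgb4 (-1.42) and the linker Plec (-1.19), and 4 of 12 regulators and receptors fell, including Trp63 (-1.19, adjusted p = 0.0131) and the Notch ligand Jag2 (-1.40). Suprabasal keratins rose in 8 of 11 cases, Krt4 by 3.45 and Krt13 by 1.85, and simple keratins in 5 of 6, Krt8 by 4.29. K8YFP+ libraries held 1.61 M to 6.71 M counts and K8YFP- libraries 8.53 M to 9.34 M. All 9 fibroblast markers had counts in both groups, and their sum ranged from 82.3 to 690.3 CPM in K8YFP+ and from 22.4 to 92.4 in K8YFP-. The sum of the 6 muscle markers ranged from 6.55 to 261 and from 4.69 to 17.6, and that of the 5 endothelial markers from 23.0 to 111 and from 10.7 to 16.8. The part of depth and of these cells in the result was not tested.

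In Sox9cKO, SmoM2 cells with floxed alleles of the transcription factor Sox9, the mean levels of all 3 basal keratins exceeded those of SmoM2, and none of the differences passed by edgeR. Sox9 itself ranged from 45.7 to 127 CPM in the libraries labelled Sox9cKO and from 72.7 to 194 in SmoM2, overlapping (log2 fold change -0.62, adjusted p = 0.361), so that the counts over the whole gene do not separate the labels. Krt5 was 3177, 3072, 4983 and 3773 CPM in Sox9cKO, Krt14 was 2322, 1545, 2600.3 and 1912, and Krt15 was 672, 809, 1471 and 872. Library 3 is high in all 3 genes. Against SmoM2 the log2 fold change was 0.67 ± 0.17 for Krt5 (adjusted p = 0.0598), 0.74 ± 0.20 for Krt14 (0.0681) and 0.54 ± 0.19 for Krt15 (0.141). Thus 0 of 3 passed by edgeR, against 2.66% of 17047 genes, while all 3 had unadjusted p under 0.05 and DESeq2 called Krt5 (adjusted p = 0.00593) and Krt14 (0.0108) but not Krt15 (0.0769). Both also passed without SmoM2 library 1 (Krt5 0.0208, Krt14 0.0223) and without Sox9cKO library 2 (Krt5 0.0228, Krt14 0.0192). Of the 10 libraries left out 1 at a time, only these 2 brought the calls. Without others the adjusted p rose to as much as 0.172 for Krt5 and 0.196 for Krt14.

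Against WT, Sox9cKO differed by 0.05 ± 0.21 for Krt5 (adjusted p = 0.859), -0.20 ± 0.17 for Krt14 (0.368) and -0.24 ± 0.20 for Krt15 (0.360), and 0 of 3 passed where 42% of genes did. At an unadjusted p under 0.05 the count was also 0, and DESeq2 called 0, which does not show that the levels are alike. Without Sox9cKO library 3 the Krt15 difference passed (-0.56, adjusted p = 0.00741). Anchorage genes rose in 3 of 13 cases and fell in 0 against SmoM2, the laminin chain Lamb3 by 0.74 and Itgb4 by 0.49, while 3 of 6 simple keratins fell, Krt20 by 3.52. Fibroblast markers, all 9 detected in both groups, summed to 36.0 to 200.3 CPM in Sox9cKO and to 23.4 to 39.4 in SmoM2, with 1 of 8 tested called higher, and their part was not tested. Gate and strain of Sox9cKO are not in the labels.

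At the junction of oesophagus and stomach the squamous side carried the basal keratins and the columnar side nearly lacked them. Krt5 was 5567, 5801 and 6327 CPM in the squamous libraries and 10.3, 19.9, 16.6 and 41.03 in the columnar ones. Krt14 was 2555, 2491 and 3120.4 against 4.92, 8.17, 7.70 and 10.7, and Krt15 was 471, 499.6 and 455 against 5.69, 12.1, 21.7 and 51.1. Columnar library 4 is the highest for each gene and library 1 the lowest. The columnar values rest on 32 to 283 counts each, so that Krt14 in library 1, with 32 counts, has a 95% exact binomial (Clopper-Pearson) interval of 3.36 to 6.94 CPM, covering counting error only. The log2 fold change was -8.39 ± 0.38 for Krt5 (adjusted p = 4.63e-09), -8.75 ± 0.21 for Krt14 (7.17e-11) and -4.72 ± 0.48 for Krt15 (3.79e-06), so that 3 of 3 fell, against 35.2% of genes. The fall of Krt15 was smaller than that of the others in log2 terms, at 26.4-fold against 335-fold and 432-fold, a difference between genes that was not tested. Fibroblast markers summed to 243 to 474 CPM in the columnar libraries and to 34.4 to 48.2 in the squamous ones, with all 9 detected in both and 4 of 5 tested called higher and 1 lower. Immune markers summed to 88.7 to 124 CPM and to 30.5 to 42.6, but Ptprc alone, at 87.2 against 0.0987 CPM, made up most of the columnar sum, and of 6 tested 2 were higher and 3 lower (median -1.12). The part of other cells was not tested, and the leading numbers of the raw names (9 and 10) cannot be told apart from the tissue.

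The squamous junction differed from WT oesophagus in the balance of the 3 genes. Krt5 was higher by 0.81 ± 0.18 (1.76-fold, adjusted p = 0.00546), Krt14 did not pass (0.28 ± 0.14, adjusted p = 0.125) and Krt15 was lower by -1.15 ± 0.11 (2.22-fold, adjusted p = 8.71e-06), without overlap of libraries for Krt5 and Krt15. Of the 3, 1 rose and 1 fell, where 34.9% of genes were called. Suprabasal keratins differed between these tissues as well: Krt10 and Krt1, keratins of cornifying epithelium, were higher by 6.79 and 9.77, and Krt4 was lower (log2 fold change -6.68). Of 13 anchorage genes 7 fell, including Itgb4 (-1.05). Genotype and raw-name number differ with the tissue and cannot be told apart from it, and strain and gate of the squamous junction are not in its labels.

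The embryonic oesophagus at E13.5 had little Krt14 beside its Krt15. Its 2 libraries had 202 and 316 CPM of Krt5, 32.6 and 38.4 of Krt14, and 529.6 and 817 of Krt15. Per length, Krt15 amounted to 3.22 and 3.26 times Krt5 in these libraries and to between 0.0894 and 0.765 times Krt5 in the adult squamous ones. Against WT, Krt5 was lower by -4.26 ± 0.42 (adjusted p = 5.88e-12), Krt14 by -6.53 ± 0.51 (7.19e-15) and Krt15 by -1.20 ± 0.36 (0.00326), in a fit of all 51 libraries. All 3 fell, against 27.8% of 22370 genes, by 19.1-fold, 92.4-fold and 2.30-fold. The Krt15 call ended without embryo library 1 (-1.02, adjusted p = 0.0632). The ratio of Krt15 to Krt14 per length was 16.2 and 21.2 in the embryo libraries, whereas in WT it ranged from 0.421 to 0.566. Embryo and WT differ in stage, genotype, strain and sort gate, and these cannot be told apart in this comparison.

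SmoM2 cells had far more Krt5 and Krt14 than the embryo. Compared with the embryo they were higher in Krt5 by 3.61 ± 0.40 (adjusted p = 2.36e-10) and in Krt14 by 5.56 ± 0.48 (adjusted p = 2.85e-13), while Krt15 did not pass (0.40 ± 0.34, adjusted p = 0.326), 529.6 and 817 CPM against 622 to 708. With these groups fitted alone Krt15 was higher in SmoM2 (0.44, adjusted p = 0.0305). So 2 of 3 were higher, against 26.6% of genes. Krt13 and Krt4 were higher too (7.13 and 5.27), and Krt8, Krt18 and Krt19 were lower (-5.70, -5.86 and -5.04). Fibroblast markers summed to 624 and 889 CPM in the embryo libraries and to 23.4 to 39.4 in SmoM2, and muscle markers to 66.0 and 71.4 against 7.55 to 12.1. The part of such cells in the embryo values was not tested. SmoM2 and embryo also differ in stage, genotype, strain, sort gate and leading number of the raw names, which cannot be told apart.

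Both K8YFP+ and the columnar junction were sorted on high EpCAM and the Krt8 reporter, and the basal keratins were far higher in the former. K8YFP+ exceeded the columnar junction by 6.22 ± 0.36 in Krt5 (74.7-fold, adjusted p = 1.87e-19), 6.33 ± 0.39 in Krt14 (80.6-fold, adjusted p = 3.80e-18) and 4.55 ± 0.35 in Krt15 (23.5-fold, adjusted p = 4.31e-15). All 3 were higher, against 27.4% of genes, and all 11 suprabasal and stress keratins were as well. The lowest K8YFP+ library had 882 CPM of Krt5, and the highest columnar library 41.03. Fibroblast markers summed to 82.3 to 690.3 CPM in K8YFP+ and 243 to 474 in the columnar junction. Of 9 tested, 8 were called higher in K8YFP+ and 1 lower. All 6 muscle markers were called higher, and of 5 endothelial markers 3 were higher and 1 lower. The part of such cells was not tested. The groups also differ in genotype, tissue and leading number of the raw names (6 and 9), which cannot be told apart.

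In stomach and in gut library 2 the 3 genes had few counts, whereas gut library 1 had 53 of Krt5 and 105 of Krt14. Stomach had 1.05 and 3.45 CPM of Krt5 (8 and 11 counts), 2.89 and 8.77 of Krt14 (22 and 28 counts) and 1.84 and 3.13 of Krt15 (14 and 10 counts). Gut library 1 had 18.9 CPM of Krt5 and 37.4 of Krt14, whereas gut library 2 had 2.20 and 2.48, and Krt15 was 3.92 and 1.10 (11 and 4 counts, interval 0.300 to 2.82 CPM for the latter). The columnar junction exceeded stomach in Krt5 (3.33 ± 0.56, adjusted p = 8.89e-06) and Krt15 (3.07 ± 0.57, adjusted p = 4.25e-05) but Krt14 did not pass (0.39 ± 0.53, adjusted p = 0.636), so that 2 of 3 were higher, against 18.5% of genes. Their sort gates and raw-name numbers (9 and 6) cannot be told apart from the tissue. Fibroblast markers summed to 243 to 474 CPM in the columnar junction and to 59.3 and 92.4 in stomach. In gut, 5 of 5 endothelial markers were called higher than in stomach, and of 9 fibroblast markers 4 were higher and 1 lower. The part of such cells was not tested. Gut exceeded stomach in Krt5 (2.73 ± 0.67, adjusted p = 0.00124) and Krt14 (2.23 ± 0.58, adjusted p = 0.00229), 2 of 3 against 15.6%, and both rest on gut library 1. Without it the differences were 0.35 for Krt5 (adjusted p = 0.865) and -0.94 for Krt14 (adjusted p = 0.388), with the remaining gut library taken to vary as the other groups do. Both calls also ended without stomach library 1 (adjusted p = 0.126 and 0.164).

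Ratios of counts within a library do not depend on how libraries are scaled. Per length, Krt14 amounted to 1.17 ± 0.0754 times Krt5 in 3w EpLo, 0.843 ± 0.0429 in 3w EpHi, 0.623 ± 0.0385 in 7w EpLo and 0.361 ± 0.0381 in 7w EpHi (SD, n = 4 each), a step down with the gate at each time and with time in each gate. No library crossed between these groups: 3w EpLo lay between 1.07 and 1.24, 3w EpHi between 0.799 and 0.880, 7w EpLo between 0.579 and 0.667, and 7w EpHi between 0.315 and 0.404. WT spanned 0.647 to 1.17, with its libraries 3 and 5 at 1.13 and 1.17 and the other 4 at 0.792 or less. SmoM2 had 0.660 ± 0.0958 and Sox9cKO 0.707 ± 0.138, and K8YFP+ (0.504 ± 0.174) and K8YFP- (0.503 ± 0.129) overlapped.

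Krt15 per Krt14 separated other groups. It was 0.476 ± 0.0656 in WT and 0.604 ± 0.0780 and 0.662 ± 0.0597 in 3w EpLo and 3w EpHi, and it reached 1.05 ± 0.101 in 7w EpLo and 1.05 ± 0.151 in 7w EpHi. It did not separate the gates at 7w (log2 difference -0.0042, exact permutation p = 1), since both type I genes differed by the same factor. The squamous junction had the lowest ratio among squamous groups, 0.176 ± 0.0280, and the embryo the highest, 18.7 ± 3.54. In all, 34 ratio tests were made in 17 comparisons by exact two-sided permutation of libraries and adjusted together. None of these exact permutation tests passed (lowest adjusted p = 0.0747). In 13 of these exact tests the adjusted p had that value and the unadjusted p was 0.0286 or less. By exact permutation, 4 libraries against 4 cannot go below p = 0.0286. Of the 13, all but Krt14 to Krt5 in 7w EpLo against WT stood at the lowest value exact permutation can give. The libraries of the rest did not overlap. Their failure to pass is limited by group size and does not show that the ratios are alike.

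**Figure D5:**
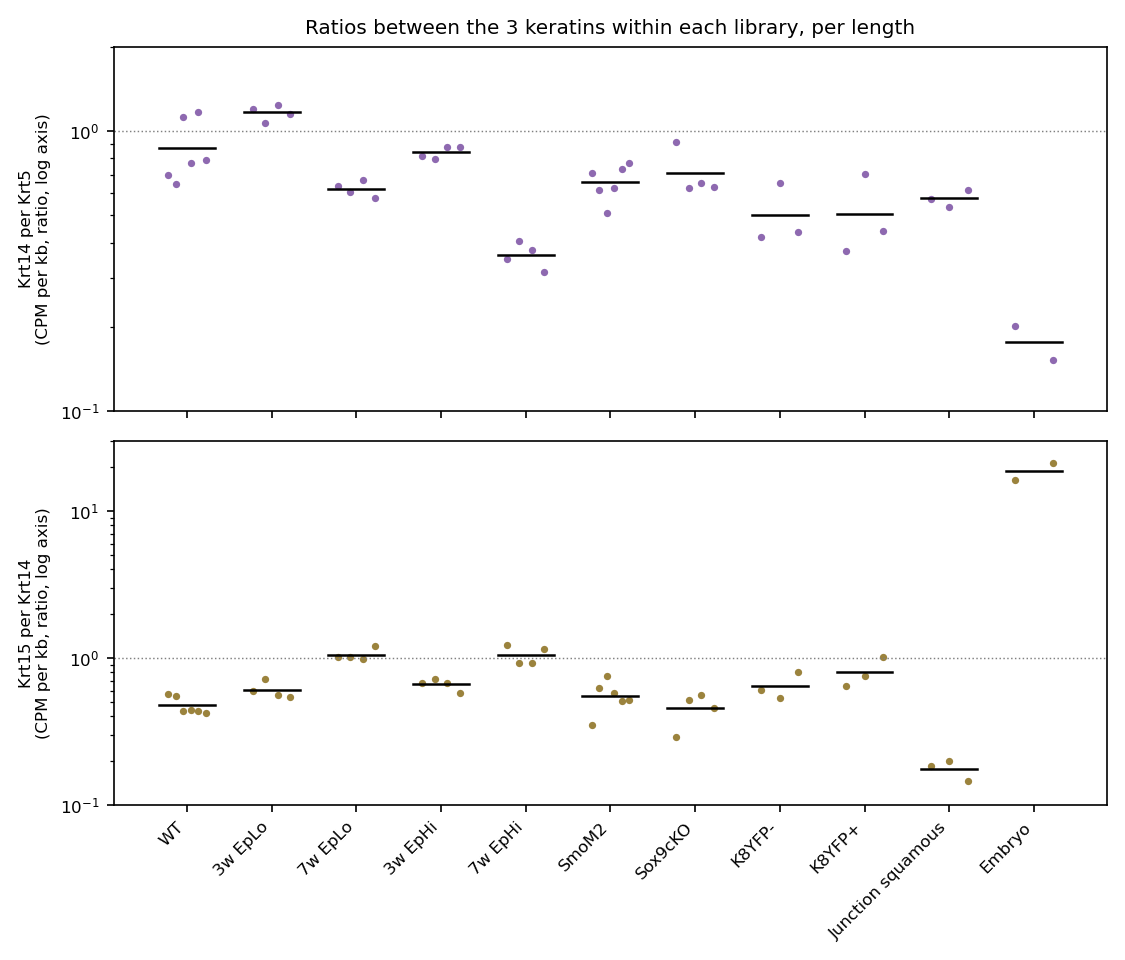
Ratios of Krt14 to Krt5 and of Krt15 to Krt14 within each library, per length of the merged exons (log axes, points are libraries, bars are group means, dotted line at 1). Krt14 per Krt5 steps down from 3w EpLo (1.17) to 7w EpHi (0.361), and Krt15 per Krt14 ranges from 0.176 in the squamous junction to 18.7 in the embryo.

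Genes were ranked by how closely their log2(CPM + 1) followed each keratin over the 14 group means, which all share the contrast of squamous and columnar tissue, among 12523 genes. Among the closest to Krt5 were the gap junction gene Gja1 (Pearson r = 0.985), the cadherin Fat2 (0.985), Zfand5 (0.982) and Myo5a (0.980). Closest to Krt14 were Hcar2 (0.991), the AP-1 factor Fosl1 (0.989), the retinoic acid hydroxylase Cyp26b1 (0.988), P3h2 (0.986) and Serpinb2 (0.978). Closest to Krt15 were the zinc finger factor Trps1 (0.985), Trp63 (0.984), Csrnp1 (0.981), Bmp4 (0.981) and Sirt1 (0.979). None of the genes named stood on more than 1 of the 3 lists. Rank correlations were lower for some (Spearman's rho 0.508 for Zfand5 and 0.587 for Trp63). The keratins themselves had r = 0.968 between Krt5 and Krt14, 0.952 between Krt5 and Krt15 and 0.885 between Krt14 and Krt15.

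Over deviations from the group means in all 51 libraries, the closest genes included Lama3, Mcpt2, Phgr1, Serpinb5 and Muc3 for Krt5 (r from 0.731 to 0.780), Lmna, Nat8f5, Asap1, Ifit1bl2 and Muc3 for Krt14 (0.792 to 0.824), and Btnl2, Phgr1, Krt6a and Wnt4 for Krt15 (0.664 to 0.705). Of these 12 genes, 5 (Phgr1, Muc3, Nat8f5, Ifit1bl2 and Btnl2) have their highest group mean in gut and 1 (Mcpt2) in the columnar junction, groups in which the keratins have few counts and the libraries differ widely. Within the 41 adult squamous libraries alone, an alternative chosen after seeing the data, the closest were Pkmyt1 (0.796), Puf60 and Wdr82 for Krt5, Fhl3 (0.761), Col18a1 and Lmna for Krt14, and Itpripl2 (0.777), Clip3 and Apoe for Krt15. Clip3 ranged only from 0 to 1.05 CPM there, with Spearman's rho of 0.431. Among these libraries the keratins had r = 0.570 (Krt5 and Krt14), 0.599 (Krt5 and Krt15) and 0.538 (Krt14 and Krt15). Libraries share depth and sort within a group, and these values describe likeness only.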

How the data were processed

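RNA of 51 libraries in 14 groups was sequenced by the authors, and the deposited table holds raw read counts for 52636 genes, 10741 of them without a count. Reads were aligned with STAR 2.5.3a and counted with HTSeq on GRCm38 (also named mm10), and edgeR was used, per the submitters' processing notes. Neither the annotation release nor how strand was handled is stated in those sources. Gene lengths and positions came from GENCODE M21, which held 52403 of the gene ids. The members and gene lists were chosen with earlier results of these data known.

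CPM were computed from the plain library totals. Differences were tested with edgeR 4.0.16 (R 4.3.3, limma 3.58.1; TMM scaling, filterByExpr with a minimum count of 10 and a minimum total of 15, quasi-likelihood F test) with Benjamini-Hochberg adjustment over all genes tested, called under 0.05. Oesophageal, reporter and junction comparisons were fitted on the groups compared, the time groups and WT in 1 fit, and embryo, stomach, gut and K8YFP+ against the columnar junction on all 51 libraries. The code was tested on simulated counts. Alternatives were DESeq2 1.42.0, RLE factors, no low-count filter, other sample sets, a replicate block, summed WT pairs and leaving out each library. Same-numbered libraries deviated together in K8YFP+ and K8YFP- (r from 0.294 to 0.417) and in both 3w gates (0.141 to 0.307). These libraries may therefore be paired by replicate number, which the labels do not state. The main fits left such pairing out, and the replicate block used it. Besides the members, the text names at most 3 called genes per list and comparison, those with the smallest p, and Krt4, Krt13, Krt8, Epcam, Trp63, Sox9 and Smo. The likeness lists name up to 5 genes per member, and some of their entries are not reported here. Library totals of 1.61 M to 12.3 M limit precision most where the members have few counts, in stomach and gut.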

Additional observations from a re-analysis of the deposited data

Results flagged for a closer look

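Libraries that stood apart from the others of their group by Dixon's test were found 4 times in 40 groups of values tested, and chance alone flags about 1 in 20 groups tested. SmoM2 library 1 had 3132 CPM of Krt5, against 2209 to 2434.5 in the other SmoM2 libraries, and 622 CPM of Krt15, against 679.6 to 708. It is the SmoM2 library whose raw name carries another leading number than the rest. The ratio of Krt15 to Krt14 per length was 1.203 in 7w EpLo library 4 and 0.982 to 1.02 in the other 7w EpLo libraries. The ratio of Krt14 to Krt5 per length was 0.913 in Sox9cKO library 1 and 0.629 to 0.652 in the other Sox9cKO libraries.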

How the results depend on the processing

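Over the 60 fold changes of the 3 genes, 321 of the alternative fits that kept all groups left the call as it was, 14 brought a call and 19 ended one. None turned a direction where either fit called the gene. Signs of differences that passed in neither fit were not counted. That of Krt5 between the 7w gates turned with DESeq2 (0.0146, against -0.0088 by edgeR). RLE size factors changed no call (60 of 60). DESeq2 added Krt15 in K8YFP+ against K8YFP- (-0.87, adjusted p = 0.0483) and Krt5 (0.68) and Krt14 (0.75) in Sox9cKO against SmoM2. Without the filter on low counts, Krt15 in K8YFP+ against K8YFP- (-0.98), Krt5 (0.69) and Krt14 (0.76) in Sox9cKO against SmoM2 and Krt5 in 7w against 3w EpHi (0.35) passed, and Krt15 in 7w against 3w EpHi (-0.21) and in 3w EpLo against WT (0.18) no longer did. The fit of all 51 libraries called Krt15 in K8YFP+ against K8YFP- (-0.96) and lost 11 calls: the 3w gate (Krt14 -0.53, Krt15 -0.39), the 7w gate (Krt14 -0.79, Krt15 -0.79), 7w against 3w in EpHi (Krt15 -0.23) and EpLo (Krt14 -0.64), 3w EpLo against WT (Krt15 0.20), 7w EpLo against WT (Krt5 -0.37, Krt15 0.37) and 7w EpHi against WT (Krt5 -0.37, Krt15 -0.41), and the cause was not tested. With the compared groups fitted alone, the gate by time difference of Krt15 (-0.40), Krt5 at 7w against 3w in EpHi (0.30) and EpLo (0.23) and Krt15 in SmoM2 against embryo (0.44) passed, while Krt5 in 7w EpLo (-0.36) and 7w EpHi (-0.34) against WT and Krt5 (2.78) and Krt14 (2.28) in gut against stomach, with fewer samples, did not. The replicate block gave -0.88 for Krt15 in K8YFP+ against K8YFP-, 0.30 for Krt5 in 7w against 3w EpHi, which passed, and 0.21 for Krt15 in 3w EpLo against WT, which did not, and it changed no other call. Summing the WT pairs ended the Krt15 call in 3w EpLo against WT (0.22).

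Leaving out 1 library at a time left the call as it was in 492 results, brought 6 calls, ended 26 and turned the direction of 1 call. The ranges were -1.49 to -0.87 for Krt14 in K8YFP+ against K8YFP-, 0.48 to 0.79 for Krt5 and 0.60 to 0.89 for Krt14 in Sox9cKO against SmoM2, -0.56 to -0.094 for Krt15 in Sox9cKO against WT, 0.24 to 0.38 for Krt5 and -0.31 to -0.15 for Krt15 in 7w against 3w EpHi, 0.21 to 0.28 for Krt15 in 3w EpLo against WT, -0.46 to -0.30 for Krt5 in 7w EpLo against WT, -0.45 to -0.29 for Krt5 in 7w EpHi against WT, -1.60 to -1.02 for Krt15 in embryo against WT, and 0.35 to 3.74 for Krt5 and -0.94 to 3.26 for Krt14 in gut against stomach, where the sign of Krt14 turned without gut library 1. The sign of some differences that did not pass also turned. Krt5 in Sox9cKO against WT ranged from -0.14 to 0.13, and Krt14 in columnar junction against stomach from -0.45 to 1.26. Scaling by TMM in place of library totals moved 4 of 42 group levels by more than their SD. Gut and stomach values rest on 4 to 105 counts per library, which limits what these tissues can show.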
